A study of Mus musculus with 12 samples.

Results

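The Hox cluster genes of the mouse are 39 protein-coding genes named Hoxa, Hoxb, Hoxc or Hoxd followed by a paralog number, arranged in 4 clusters on chromosomes 6, 11, 15 and 2. They were found in a table of RNA-seq counts by their Ensembl identifiers, and 38 of the 39 matched a row among 37310 genes. Hoxd4 was not analysed here.

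Hox genes encode homeodomain transcription factors that give cells along the body axis and the limbs their positional identity. Within a cluster the genes lie in the order of their paralog numbers. Low-numbered genes are switched on early and toward the head, and high-numbered ones late and toward the tail and the tips of the limbs. Fibroblasts keep in culture much of the Hox pattern of the body site they came from, and Polycomb and Trithorax proteins are known for holding Hox clusters off or on.

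The cells were lines derived from mouse embryonic fibroblasts (MEF). One line carries the label knock-out for HP1γ, a chromodomain protein of heterochromatin that recognises methylated histone H3 and is encoded by Cbx3, and is called KO here. The other line had HP1γ expression restored and is called HPg. Each line was studied with the phorbol ester PMA, an activator of protein kinase C, given at 100 nM in DMSO for 30 min to nearly confluent cultures, and without it. This gave KO with PMA, KO untreated, HPg with PMA and HPg untreated, with 3 libraries each. No source used here gives the vehicle of the untreated cells or the promoter that drives the restored HP1γ. Since 1 line stands for each genotype, line and genotype cannot be told apart, and p-values measure the spread between cultures.

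Total counts per library ranged from 111458145 to 159929347. Hox genes took 0.023% to 0.0362% of them. Levels are given as CPM, each count scaled by the library's total and its TMM factor, or as CPM per kb, the CPM divided by the gene's exon length in kb, where genes are compared with each other. Cbx3 had 33.3, 26.9 and 35.2 CPM in KO cells with PMA, 35.5, 39 and 35.0 CPM in untreated KO cells, 43.1, 33.8 and 38.9 CPM in HPg cells with PMA, and 37.1, 37.4 and 41.5 CPM in untreated HPg cells. The transcript was thus present in every library labelled KO, at a log2 fold change of -0.18 (SE 0.09) averaged over treatment that missed the threshold (edgeR, adjusted p = 0.2325). Counts summed over a whole gene cannot tell whether a deleted stretch is missing, so this level does not check the genotype label. The 12 fibroblast markers summed to between 2290 and 2920 CPM per kb over the libraries, with Thy1 alone under 0.05 CPM per kb, and the 3 pluripotency markers summed to at most 0.0195 CPM per kb. In the HPg line untreated, library 2 stood apart with 17822 genes detected, against 19759 to 20656 in the other libraries.

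Transcripts of 23 of the 38 Hox genes were counted at least once, and 15 genes had no count in any of the 12 libraries. The HoxA and HoxD clusters held nearly all of the Hox RNA. Mean levels summed over a cluster were 76.8 CPM per kb for HoxA, 31.6 for HoxD, 0.0515 for HoxC and 0.0158 for HoxB, or 70.8%, 29.1%, 0.0475% and 0.0146% of the Hox total. The most abundant genes were of high paralog number. Mean levels summed over paralog group 13 were 47.0 CPM per kb, over group 10 33.7, over group 11 20.9 and over group 9 5.07. Groups 10 and 11 were almost wholly Hoxa10 and Hoxa11. Group 12 summed to only 0.0591 CPM per kb, below groups 8, 7 and 3 at 0.855, 0.303 and 0.142. The means of groups 4, 5 and 6 were at most 0.00148 CPM per kb, and in any library these groups summed to at most 0.00839. Group 4 is given without Hoxd4. Divided by the length of the longest transcript in place of the joined exons, group 9 came to 8.17 CPM per kb and the others kept their order. Without the libraries numbered 2, which differed in Hoxd3, Hoxd8, Hoxd9 and Hoxc13 as described further on, the same 2 counts were 23 and 15 genes.

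**Figure D1:**
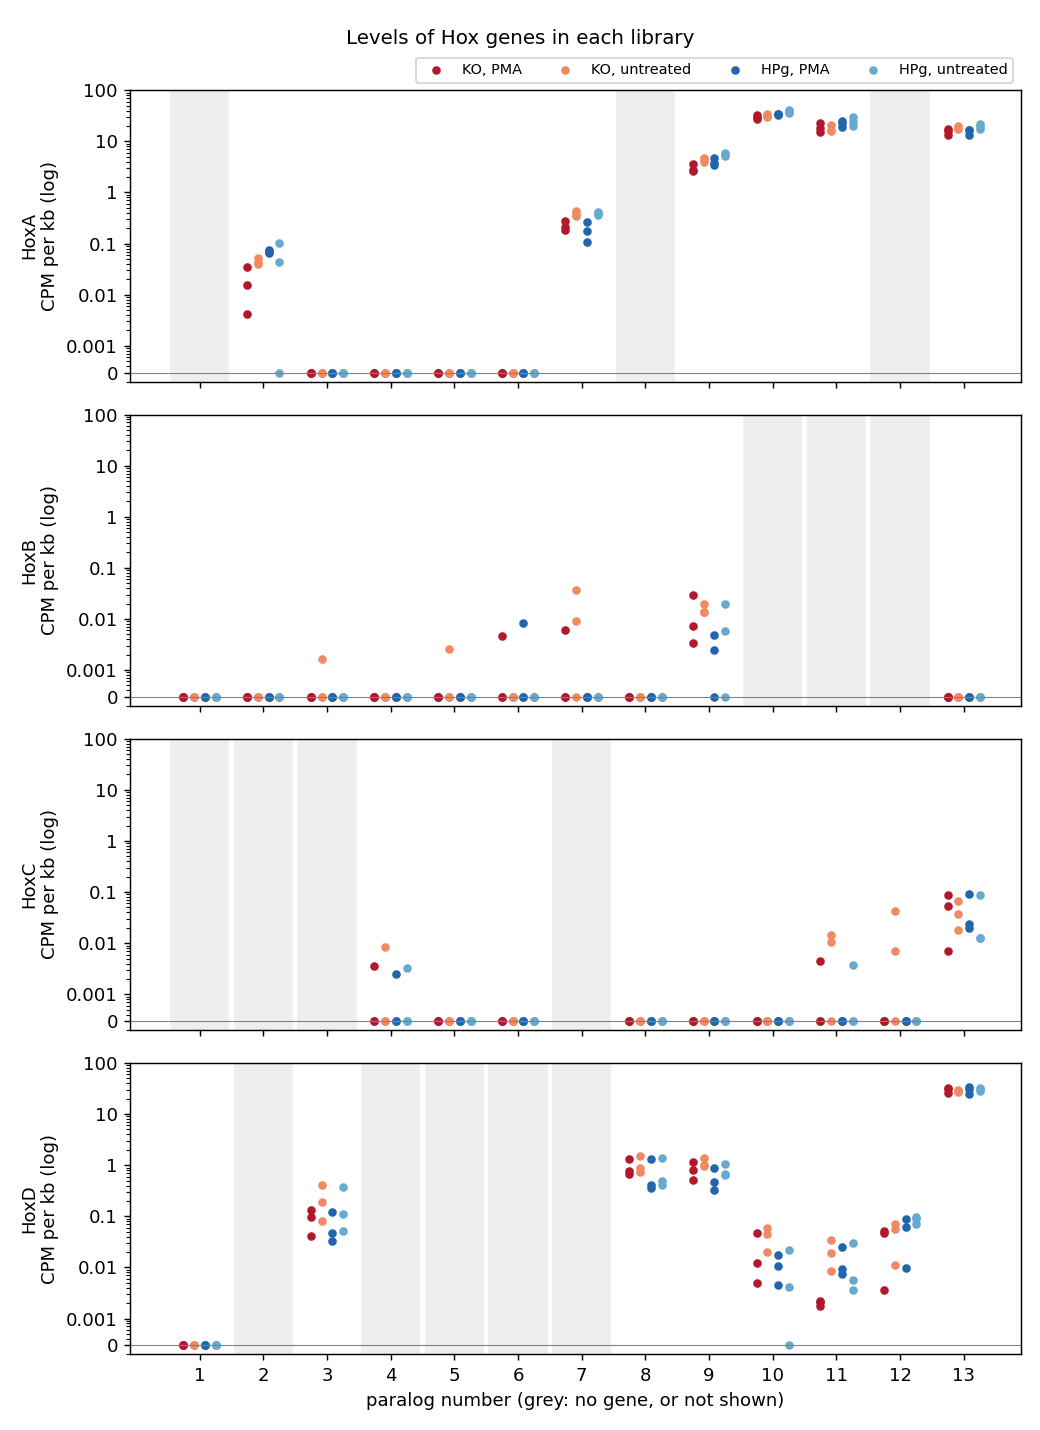
CPM per kb on a log axis for 37 of the 38 Hox genes in each of the 12 libraries, by paralog number, with 1 panel per cluster; each point is 1 library, its colour the group, and points on the bottom line are 0. Hoxa10, Hoxa11, Hoxa13 and Hoxd13 stood above 10 CPM per kb in every library, and the HoxC and HoxB clusters summed to at most 0.131 and 0.0511 CPM per kb in any library.

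In HoxA, Hoxa10 was the most abundant member with a mean of 33.7 CPM per kb, a level above 94.9% of the 23170 genes that had a count and an exon length. Hoxa11 followed with 20.9 CPM per kb and Hoxa13 with 17.3. The ranges over the 12 libraries were 27.9 to 41.5 CPM per kb for Hoxa10, 15.5 to 29.8 for Hoxa11 and 13.4 to 22.3 for Hoxa13. Each range overlapped that of its neighbour in the order. Within every library, though, Hoxa10 was above Hoxa11, while the order of Hoxa11 and Hoxa13 varied between libraries. Hoxa9 came next at 4.24 CPM per kb. These AbdB-type genes pattern the posterior trunk and the limb: Hoxa9 and Hoxa10 the proximal limb, Hoxa11 the zeugopod, the segment of the lower leg and forearm, and Hoxa13 the hand and foot plate. An antisense gene, Hoxa11os, covers 35.0% of the exons of Hoxa11 in GRCm38, and because no source used here gives the strand setting of the counting, reads of the pair cannot be told apart. Nearer the anterior end, Hoxa7 averaged 0.298 CPM per kb and Hoxa2 0.0456, and Hoxa3, Hoxa4, Hoxa5 and Hoxa6 had no count.

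In HoxD, Hoxd13, a regulator of digit formation, averaged 29.7 CPM per kb, with a range of 25.1 to 33.6. That range overlapped the one of Hoxa10 and lay wholly above the one of its paralog Hoxa13. Its neighbour Hoxd12 averaged 0.055 CPM per kb, so that Hoxd13 stood 539 times higher. Hoxd10 and Hoxd11 were lower still, at 0.0206 and 0.0124 CPM per kb. Further along the cluster Hoxd8 and Hoxd9 averaged 0.855 and 0.826 CPM per kb and overlapped in range. Hoxd3 had 0.142 CPM per kb, but 62.3% of its exons are shared with other genes of the same strand, Hoxd4 among them. Hoxd1 had no count.

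HoxB and HoxC were close to silent. Hoxb9 was the highest of HoxB, with 1, 10 and 2 counts in KO cells with PMA, 4, 5 and 7 in untreated KO cells, 1, 2 and 0 in HPg cells with PMA, and 0, 6 and 2 in untreated HPg cells. Hoxb7 had 1 count in 1 library of KO cells with PMA and 8 and 2 counts in 2 libraries of untreated KO cells, and none in the others. Hoxc13, a gene of hair and nail formation, led HoxC with 2, 28 and 14 counts in KO cells with PMA, 5, 23 and 13 in untreated KO cells, 9, 36 and 6 in HPg cells with PMA, and 4, 26 and 4 in untreated HPg cells. It was the only HoxB or HoxC gene with enough counts to be tested. Hoxc12 had 6 and 1 counts in 2 libraries of untreated KO cells and none elsewhere. Hoxb3, Hoxb5, Hoxb6, Hoxc4 and Hoxc11 had at most 4 counts in any library. No count was found for Hoxb1, Hoxb2, Hoxb4, Hoxb8 and Hoxb13, nor for Hoxc5, Hoxc6, Hoxc8, Hoxc9 and Hoxc10, and 3 counts, the limit that a count of 0 allows, correspond to 0.0190 to 0.0276 CPM in these libraries. That limit covers counting error only. In GRCm38, Hoxb3os on the other strand covers 27.3% of the exons of Hoxb2 and 52.9% of those of Hoxb3. In HoxA, genes of the other strand cover 25.4% and 16.0% of the exons of Hoxa3 and Hoxa4. How reads of such shared exons were counted is not known here.

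The promoters of 2 of the most abundant genes and of a gene without a count are shown because they lie at opposite ends of the range of levels while all are rich in CpG, the dinucleotide on which DNA methylation and much of Polycomb binding act. The sequences are from RefSeq on GRCm38.p6 and run from 250 bases before to 50 bases after the annotated start, with each CG in capitals. The windows are chr6:52260831-52261130 on the minus strand for Hoxa13, chr2:74667975-74668274 on the plus strand for Hoxd13 and chr6:52204538-52204837 on the minus strand for Hoxa5.
Hoxa13: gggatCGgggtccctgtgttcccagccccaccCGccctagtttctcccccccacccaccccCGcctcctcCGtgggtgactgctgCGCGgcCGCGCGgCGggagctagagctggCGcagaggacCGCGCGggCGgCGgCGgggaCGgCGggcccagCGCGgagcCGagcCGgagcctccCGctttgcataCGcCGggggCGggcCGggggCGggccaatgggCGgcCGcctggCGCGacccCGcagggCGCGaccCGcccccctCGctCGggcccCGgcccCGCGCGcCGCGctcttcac
Hoxd13: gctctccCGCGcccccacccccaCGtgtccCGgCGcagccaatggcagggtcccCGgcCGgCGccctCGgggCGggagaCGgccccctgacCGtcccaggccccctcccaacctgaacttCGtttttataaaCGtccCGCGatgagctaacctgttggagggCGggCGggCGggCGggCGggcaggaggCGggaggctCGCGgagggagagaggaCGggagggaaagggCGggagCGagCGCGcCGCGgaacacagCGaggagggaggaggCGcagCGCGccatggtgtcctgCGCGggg
Hoxa5: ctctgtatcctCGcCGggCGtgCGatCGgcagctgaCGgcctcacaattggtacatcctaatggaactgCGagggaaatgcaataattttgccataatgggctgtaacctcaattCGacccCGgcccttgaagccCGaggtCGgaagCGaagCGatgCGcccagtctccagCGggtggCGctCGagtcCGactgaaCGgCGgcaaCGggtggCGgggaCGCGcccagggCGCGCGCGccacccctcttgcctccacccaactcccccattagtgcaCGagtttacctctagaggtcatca
The Hoxa13 window held 45 CG and the Hoxd13 window 37, beside mean levels of 17.3 and 29.7 CPM per kb, and the Hoxa5 window held 29 CG beside a level of 0. The RefSeq table had 24 promoter windows for 22 Hox genes, Hoxd4 included, with a median of 14.5 CG, against a median of 7 CG over all 32851 promoters. Windows of genes with at least 100 counts in every library had a median of 15 CG (7 windows, 4 to 45), and windows of genes with no count a median of 20 CG (7 windows, 10 to 29). The CG contents of the expressed and the silent members thus overlapped. The letters TATAAA, on either strand, occurred in 13.6% of all promoters and in 4 of the 24 Hox windows, Hoxd13 among them, and TGATNNAT, the core of a joint PBX and HOX binding site, in 8.85% of all and in 4 of the 24, with no allowance made for overlap between the motifs.

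Of the genes at the ends of the clusters, Evx2, a homeobox gene beside Hoxd13, was expressed at 3.36 CPM per kb, and Evx1 beside Hoxa13 at 0.0524. Noncoding RNAs of HoxA were the abundant ones, as its coding genes were. Hoxa11os averaged 19.2 CPM per kb, Hottip, a transcript from beyond Hoxa13 known in human cells for keeping the posterior HoxA genes active, 2.92, and Hotairm1, from the anterior end of the cluster, 2.75. Hotair of the HoxC cluster averaged 0.00165 CPM per kb. Of 19 noncoding RNAs listed, 16 had a row and 6 had enough counts to be tested; the 6 microRNA genes had none, in libraries that were not made for small RNAs.

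Limb regulators outside the clusters were set beside the Hox genes, from a list of 35 factors of limb and regional identity. Pitx1 and Tbx4, which specify the hindlimb, averaged 18.6 and 20.7 CPM per kb, whereas Tbx5, which specifies the forelimb, averaged 0.011 and Isl1, an early hindlimb factor, had no count. Pitx1 had 55.0, 39.3 and 40.4 CPM in KO cells with PMA, 59.5, 39.2 and 51.7 in untreated KO cells, 47.0, 35.8 and 50 in HPg cells with PMA, and 68.3, 47.3 and 60.9 in untreated HPg cells. Its groups overlapped, but in HPg each library with PMA was below the untreated library of the same number, and with the replicate number as a block Pitx1 fell with PMA there by 0.40 on the log2 scale (edgeR, adjusted p = 0.01655). Of the 35 factors, 16 were under 0.05 CPM per kb, among them the head factor Otx2. Of 9 TALE homeodomain cofactors, which bind DNA together with Hox proteins, Meis2 averaged 6.03 CPM per kb and Meis1 0.000967. Shh and Fgf8, the signals of the limb bud margins, and the caudal factors Cdx1, Cdx2 and Cdx4 were each under 0.05 CPM per kb.

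**Figure D2:**
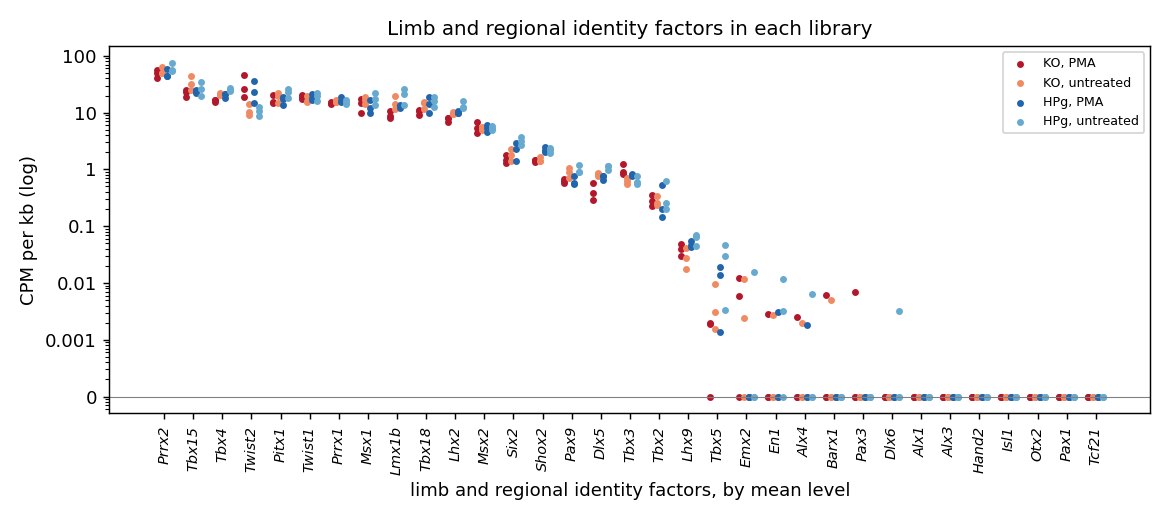
CPM per kb on a log axis of 33 of the 35 limb and regional identity factors in each of the 12 libraries, ordered by mean level; each point is 1 library, its colour the group, and points on the bottom line are 0. Pitx1 and Tbx4 averaged 18.6 and 20.7 CPM per kb and Tbx5 0.011, and 7 of the 33 had no count in any library.

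The comparison of the lines asks whether Hox levels differ between the line labelled knock-out for HP1γ and the line with its expression restored. Averaged over treatment, Hoxa9 fell in KO cells. The other posterior HoxA genes Hoxa10 and Hoxa11 had negative and the central HoxD genes Hoxd8 and Hoxd9 positive log2 fold changes that missed the threshold without the replicate number in the fit and passed it with the number as a block. HoxA summed to 67.9 ± 8.76 CPM per kb in KO cells with PMA and 73.2 ± 6.38 in untreated KO cells, against 76.4 ± 5.01 in HPg cells with PMA and 89.6 ± 7.56 in untreated HPg cells (SD, n = 3 each). HoxD summed to 31.9 ± 4.09 CPM per kb in KO cells with PMA and 30.8 ± 2.32 in untreated KO cells, against 31.4 ± 4.77 in HPg cells with PMA and 32.4 ± 2.87 in untreated HPg cells (SD, n = 3 each), so the HoxD sums differed by less than their spread. Fewer cells that express a gene and less RNA per cell cannot be told apart in such bulk samples.

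Genes were tested with edgeR's quasi-likelihood test and Benjamini-Hochberg adjustment over 16630 genes, and called at an adjusted p under 0.05. Of the 38 Hox genes, 15 had enough counts: 7 of HoxA, 7 of HoxD and Hoxc13. Averaged over treatment, 1 of the 15 was called, beside 10.4% of all genes tested and 4.85% of them called lower, so the share of Hox genes called was near that of all genes. Their median log2 fold change was -0.06, against 0.01 over all genes, and 6 of the 15 were above 0. In untreated cells 0 of the 15 were called, beside 1.32% of all genes, with 3 at an unadjusted p under 0.05. DESeq2 and limma-voom called 0 as well, beside 775 and 249 of 16630 genes. With PMA, 0 of the 15 were called, beside 2.47% of all genes, with 2 at an unadjusted p under 0.05. DESeq2 and limma-voom again called 0, beside 1174 and 386 of 16630 genes.

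Hoxa9 was the gene called. It had 20.2, 15.3 and 14.5 CPM in KO cells with PMA and 25.4, 22.4 and 26.3 in untreated KO cells, against 26.2, 18.9 and 21.0 CPM in HPg cells with PMA and 29.4, 31.4 and 32.8 in untreated HPg cells. The untreated lines did not overlap and those with PMA did, and KO was the lower in 6 of 6 pairs of libraries with the same replicate number. Such tallies were made only for Hox genes and their noncoding RNAs, so no share over all genes stands beside them, here or below. It fell by 0.37 on the log2 scale in KO (SE 0.11, edgeR, adjusted p = 0.0483). Of the 12 fits that left out 1 library, in which the adjusted p ranged from 0.0236 to 0.105, only those without KO PMA library 1 or HPg PMA library 2 kept the call. It was lost without all libraries numbered 2 (adjusted p = 0.0635).

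Hoxa10 and Hoxa11 lay on the same side. Hoxa10 had 109, 96.0 and 91.3 CPM in KO cells with PMA and 112, 96.9 and 101 in untreated KO cells, against 109, 113 and 111 CPM in HPg cells with PMA and 131, 116 and 136 in untreated HPg cells. Hoxa11 had 51.4, 41.6 and 35.5 CPM in KO cells with PMA and 48.9, 38.6 and 37.3 in untreated KO cells, against 56.9, 51.8 and 44.6 CPM in HPg cells with PMA and 68.2, 53.8 and 45.5 in untreated HPg cells. For Hoxa10 every untreated KO library was below every untreated HPg library, while for Hoxa11 the groups overlapped and only libraries of the same number showed the order. KO was the lower in 6 of 6 pairs for both. The log2 fold changes averaged over treatment were -0.23 (SE 0.08, edgeR, adjusted p = 0.0789) for Hoxa10 and -0.34 (SE 0.13, edgeR, adjusted p = 0.111) for Hoxa11. Hoxa13 and Hoxd13, the most distal members, had log2 fold changes of -0.06 (SE 0.10) and -0.05 (SE 0.09).

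Libraries with the same number deviated together from their group means, so the replicate number was also fitted as a block, which called 5 of the 15 Hox genes in the comparison averaged over treatment, beside 29.3% of all genes, a like share. Of all genes, 14.1% were called lower and 15.2% higher there. Hoxa9, Hoxa10 and Hoxa11 fell in KO by 0.37, 0.23 and 0.34 on the log2 scale in that fit (edgeR, adjusted p = 0.00532, 0.0139 and 0.000938). Hoxd8 and Hoxd9 rose by 0.59 (SE 0.16) and 0.56 (SE 0.15) on the log2 scale (edgeR, adjusted p = 0.0141 and 0.0131). With the block, 2 of the 15 were called in untreated cells, Hoxa10 and Hoxa11, beside 12.5% of all genes, and 2 with PMA, Hoxa9 and Hoxa11, beside 18.6% of all genes. Each was lower in KO.

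**Figure D3:**
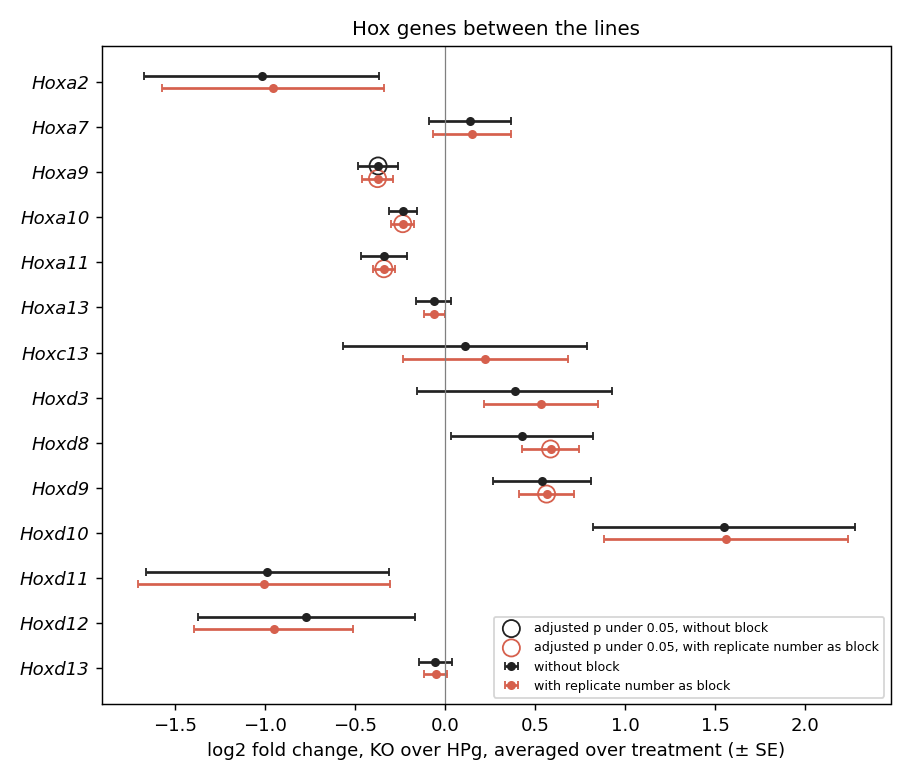
Log2 fold change of KO over HPg, averaged over treatment, of 14 of the 15 Hox genes tested, without and with the replicate number as a block; bars are standard errors and rings mark an adjusted p under 0.05. Hoxa9, Hoxa10 and Hoxa11 lie below 0 and Hoxd8 and Hoxd9 above it in both fits, and Hoxa9 alone has a ring in the fit without the block.

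Hoxd8, a gene of the central HoxD cluster, had 2.15, 3.70 and 1.84 CPM in KO cells with PMA and 2.00, 4.10 and 2.37 in untreated KO cells, against 0.983, 3.58 and 1.13 CPM in HPg cells with PMA and 1.37, 3.82 and 1.12 in untreated HPg cells. Hoxd9 had 1.73, 2.49 and 1.1 CPM in KO cells with PMA and 2.07, 3.02 and 2.11 in untreated KO cells, against 1.02, 1.85 and 0.694 CPM in HPg cells with PMA and 1.38, 2.27 and 1.43 in untreated HPg cells. The lines overlapped for both, and KO was the higher in 6 of 6 pairs for each. Without the block, the log2 fold changes averaged over treatment were 0.43 (SE 0.40, edgeR, adjusted p = 0.551) for Hoxd8 and 0.54 (SE 0.27, edgeR, adjusted p = 0.239) for Hoxd9. Hoxd3 was also higher in KO in 6 of 6 pairs, with a log2 fold change of 0.39 (SE 0.54).

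The libraries numbered 2 were the highest of their group for Hoxd8 in all 4 groups, in a range of 3.58 to 4.10 CPM, against 0.983 to 2.37 CPM in the libraries numbered 1 and 3. Their mean log2 level exceeded that of the libraries numbered 1 and 3 by 1.31 for Hoxd8, by 0.79 for Hoxd9, by 1.60 for Hoxd3 and by 1.95 for Hoxc13. For Hoxa10 the same difference was -0.09. A test of the replicate number over all groups, added after these values were seen, called 8 of the 15 Hox genes, beside 34.5% of all genes (edgeR). When the libraries numbered 2 were left out, an alternative also added later, the averaged comparison called 1 of the 15 Hox genes. This was Hoxd8, higher in KO by 0.86 on the log2 scale (edgeR, adjusted p = 0.00799). That fit called 3030 of all 16642 genes tested, 1650 of them higher in KO, so its 1 Hox call does not set the Hox genes apart. No source used here gives what the replicate number stands for.

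**Figure D4:**
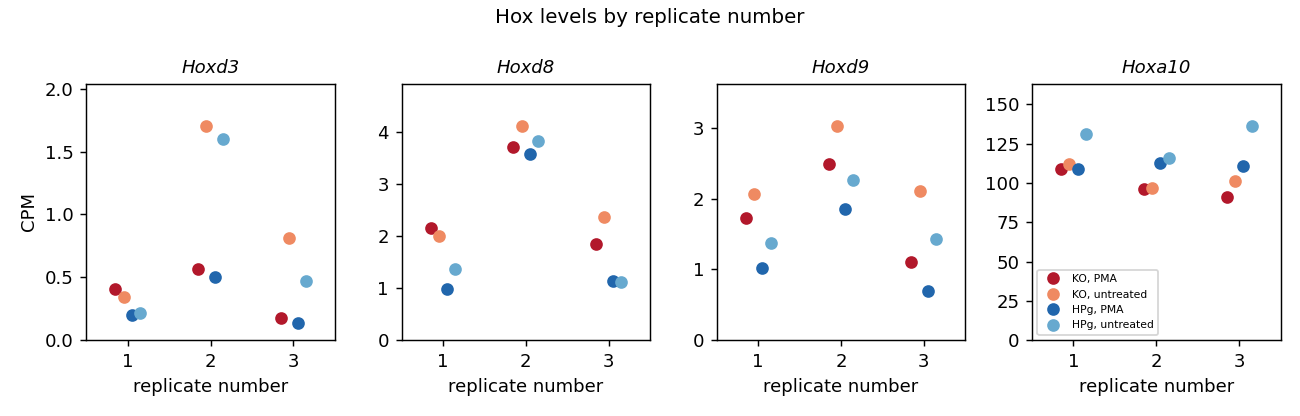
CPM of Hoxd3, Hoxd8, Hoxd9 and Hoxa10 by replicate number on linear axes from 0; each point is 1 library and its colour the group. Hoxd8 lies between 3.58 and 4.10 CPM in the libraries numbered 2 and at most at 2.37 CPM in the others, while Hoxa10 lies between 91.3 and 136 CPM with no such step.

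The largest fold changes were those of genes with few counts, and none passed the test. Hoxd10 had 10, 3 and 1 counts in KO cells with PMA and 9, 15 and 5 in untreated KO cells, against 3, 5 and 1 counts in HPg cells with PMA and 5, 0 and 1 in untreated HPg cells, at a log2 fold change of 1.55 (SE 0.73, edgeR, adjusted p = 0.201). Hoxd12 had 15, 16 and 1 counts in KO cells with PMA and 16, 25 and 4 in untreated KO cells, against 24, 36 and 3 counts in HPg cells with PMA and 31, 27 and 24 in untreated HPg cells, at -0.77 (SE 0.60, edgeR, adjusted p = 0.468). It was lower in KO in 6 of 6 pairs, unlike Hoxd3, Hoxd8 and Hoxd9, which were higher in 6 of 6. Hoxd12 lies next to Hoxd13, whose counts ran from 7095 to 12902. Hoxa2, a hindbrain gene, had 7, 1 and 3 counts in KO cells with PMA and 8, 13 and 11 in untreated KO cells, against 18, 20 and 16 counts in HPg cells with PMA and 23, 0 and 10 in untreated HPg cells, at -1.02 (SE 0.65, edgeR, adjusted p = 0.362). The 0 was in HPg library 2, which had the fewest genes detected. Hoxd11 had 1 count in each library of KO cells with PMA and 9, 20 and 5 in untreated KO cells, against 6, 5 and 13 counts in HPg cells with PMA and 3, 15 and 2 in untreated HPg cells, at -0.99 (SE 0.68, edgeR, adjusted p = 0.396). It was 1 of 3 Hox genes, with Hoxa2 and Hoxa10, whose lines did not overlap with PMA, all lower in KO, beside 25.0% of all genes. For Hoxa10 the gap was smaller than the digits printed, with 109 CPM in KO PMA library 1 and in HPg PMA library 1. Untreated, the lines did not overlap for Hoxa9, Hoxa10 and Hoxd12, again lower in KO, beside 18.5% of all genes, and over both treatments together the lines overlapped for all 15, beside 5.13% of all genes without overlap.

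Of the noncoding RNAs of HoxA, Hottip, Hoxaas2, Hoxa11os and Hotairm1 were lower in KO in 6 of 6 pairs each, and Hoxaas3 in 5 of 6. How often other genes reach 6 of 6 pairs was not counted. Hottip had 6.91, 5.54 and 6.68 CPM in KO cells with PMA and 8.62, 7.93 and 9.72 in untreated KO cells, against 7.92, 7.0 and 8.24 CPM in HPg cells with PMA and 11.4, 9.16 and 11.9 in untreated HPg cells. None of the 6 tested was called averaged over treatment, beside 10.4% of all genes, and with the block Hottip, Hotairm1 and Hoxa11os fell in KO by 0.29, 0.64 and 0.33 on the log2 scale (edgeR, adjusted p = 0.0114, 0.0172 and 0.000887). Hoxa11os shares exon sequence with Hoxa11, as described above. Of 24 genes near the clusters, 23 were tested and 3 called averaged over treatment: Calcoco1, near HoxC, rose by 0.46, and Hibadh and Tax1bp1, near HoxA, fell by 0.32 and 0.36 on the log2 scale (edgeR, adjusted p = 0.0152, 0.0135 and 0.0208). Cbx3 itself lies on chromosome 6, as HoxA does.

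Among the cofactors, 1 of 8 tested rose and 1 fell averaged over treatment, where 10.4% of all genes were called and 4.85% were called lower. Meis3 averaged 6.31 ± 0.878 CPM in KO cells with PMA and 5.54 ± 0.415 in untreated KO cells, against 2.73 ± 1.08 in HPg cells with PMA and 2.99 ± 0.70 in untreated HPg cells (SD, n = 3 each), and rose by 1.05 on the log2 scale in KO (SE 0.19, edgeR, adjusted p = 0.0048). Pbx3 fell by 0.64 on the log2 scale in KO (SE 0.15, edgeR, adjusted p = 0.0167). Of 21 limb and regional factors tested, 5 were called, of which 4 fell: Shox2, a gene of proximal limb growth, Six2, Lhx2 and Tbx4, by 0.61, 0.68, 0.44 and 0.29 on the log2 scale in KO (edgeR, adjusted p between 0.00464 and 0.0377). Of 46 Polycomb and Trithorax regulators, all tested, 2 rose and 1 fell: Phf19, an accessory subunit of Polycomb complex PRC2, by 0.75, Cbx7, a chromodomain subunit of PRC1, by 0.53, and Bmi1, a core subunit of PRC1, fell by 0.34 on the log2 scale in KO (edgeR, adjusted p = 0.0023, 0.011 and 0.0404). Their median log2 fold change was -0.09, against 0.01 over all genes. Of 12 upstream patterning regulators tested, 1 was called, and none lower. The median log2 fold changes averaged over treatment were -0.31 for the tested noncoding RNAs, -0.17 for the genes near the clusters, -0.05 for the cofactors, -0.10 for the limb factors and -0.09 for the patterning regulators, against 0.01 over all genes.

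Without the block, no member of these lists was called in untreated cells, where 1.32% of all genes were, and with PMA, where 2.47% of all genes were, Tax1bp1, Shox2 and Pbx3 were called lower and Phf19 and Meis3 higher in KO. The replicate block changed these counts. Averaged over treatment, where it called 15.2% of all genes higher and 14.1% lower, it called 1 higher and 8 lower of the 23 genes near the clusters, 1 and 3 of the 8 cofactors, 1 and 8 of the 21 limb factors, 5 and 13 of the 46 Polycomb and Trithorax regulators and 1 and 2 of the 12 patterning regulators. The 13 lower included Ezh2 and Eed, core subunits of PRC2, at -0.29 and -0.23 on the log2 scale (edgeR, adjusted p = 0.0137 and 0.0399). In untreated cells, where the block called 12.5% of all genes, it called 1 higher and 1 lower each of the genes near the clusters, the cofactors, the Polycomb and Trithorax regulators and the patterning regulators, 1 and 4 of the limb factors and, of the noncoding RNAs, Hoxa11os lower. The patterning regulator called lower there was Cyp26b1, which degrades retinoic acid, at -1.17 on the log2 scale (edgeR, adjusted p = 0.000302). With PMA, where the block called 18.6% of all genes, it called 1 higher and 7 lower of the genes near the clusters, 1 and 2 of the cofactors, 1 and 7 of the limb factors, 6 and 6 of the Polycomb and Trithorax regulators, 1 and 1 of the patterning regulators and Hoxa11os lower.

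Markers of other cell types moved too: Col2a1 of cartilage and Des of muscle rose by 1.01 and 1.35 on the log2 scale in KO (edgeR, adjusted p = 0.00544 and 0.00798), beside 10.4% of all genes called. The other 3 cartilage and bone markers tested were below 0, and the median of the 4 was -0.26. With the block, which called 29.3% of all genes, Krt8 of epithelia rose by 2.21, Fabp4 of adipocytes by 0.63 and Tek of endothelium by 0.65, and Pparg of adipocytes fell by 0.84 and Kdr of endothelium by 0.77 on the log2 scale (edgeR, adjusted p at most 0.0304). Of the 11 fibroblast markers tested, 5 were called higher in KO with the block, among them Col3a1 and Postn at 0.60 and 0.77, and Vim fell by 0.32 on the log2 scale (edgeR, adjusted p = 0.00119, 0.0227 and 0.00828). The summed markers of cartilage and bone ranged from 6.88 to 8.02 CPM per kb in KO cells with PMA and 6.43 to 8.01 in untreated KO cells, against 5.07 to 6.82 in HPg cells with PMA and 4.62 to 7.78 in untreated HPg cells. Acan, Bglap and Sp7 were under 0.05 CPM per kb, as were Myod1, Myog and Myh3 of muscle. Their part in the Hox differences was not tested.

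PMA for 30 min was compared with untreated cells in each line. In the HPg line 0 of the 15 Hox genes were called, beside 3.45% of all genes, and 3 of the 15 had an unadjusted p under 0.05. DESeq2 called 1, Hoxa7, beside 1196 of 16630 genes, and limma-voom 0, beside 553. In the KO line 0 of the 15 were called, beside 4.44% of all genes, and 3 of the 15 had an unadjusted p under 0.05. DESeq2 called 1, Hoxa9, beside 1279 of 16630 genes, and limma-voom 0, beside 728. The median log2 fold change of the 15 was -0.20 in HPg and -0.41 in KO, against -0.02 and -0.02 over all genes, and 4 and 3 of the 15 were above 0. The immediate-early gene Egr2, which also acts upstream of Hox genes in the hindbrain, rose by 7.75 on the log2 scale in HPg and by 8.16 in KO (edgeR, adjusted p = 6e-06 and 3e-06).

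Hoxa9, with its CPM values given above, was lower with PMA in 6 of 6 pairs, and its groups did not overlap in either line. The log2 fold changes were -0.57 in KO (SE 0.15, edgeR, adjusted p = 0.0615) and -0.50 in HPg (SE 0.15, edgeR, adjusted p = 0.104). Hoxa7 had 0.811, 0.520 and 0.616 CPM with PMA in KO, against 1.02, 1.09 and 1.26 CPM untreated, and 0.770, 0.508 and 0.310 CPM with PMA in HPg, against 1.03, 1.22 and 1.14 CPM untreated. Its groups did not overlap in either line, at log2 fold changes of -0.79 in KO (SE 0.32, edgeR, adjusted p = 0.237) and -1.09 in HPg (SE 0.32, edgeR, adjusted p = 0.0944). Hoxaas3, an antisense gene, covers 20.4% of its exons. In all, groups did not overlap for 4 of 15 genes in KO (Hoxa2, Hoxa7, Hoxa9 and Hoxd11), beside 21.8% of all genes, and for 4 in HPg (Hoxa7, Hoxa9, Hoxa10 and Hoxa13), beside 22.7%. All were lower with PMA, and both shares are near those of all genes.

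With the replicate number as a block, Hoxa9 fell with PMA by 0.57 on the log2 scale in KO (edgeR, adjusted p = 0.00697), the 1 Hox gene called there, beside 13.4% of all genes. In HPg, the blocked fit called 3 of the 15, beside 14.8% of all genes: Hoxa7, Hoxa9 and Hoxa13 fell by 1.13, 0.52 and 0.33 on the log2 scale (edgeR, adjusted p = 0.025, 0.0126 and 0.0179). Hoxa13 had 42.5, 39.6 and 33.4 CPM with PMA in KO, against 48.7, 44.3 and 42.4 CPM untreated, and 41.4, 41.8 and 33.1 CPM with PMA in HPg, against 55.2, 48.4 and 42.9 CPM untreated. It was lower with PMA in 6 of 6 pairs. Hoxd13 had 76.5, 81.6 and 65.2 CPM with PMA in KO, against 68.9, 74.3 and 67.3 CPM untreated, and 83.5, 77.5 and 62.2 CPM with PMA in HPg, against 77.3, 80.0 and 69.9 CPM untreated. Its groups overlapped in both lines, at log2 fold changes of 0.09 in KO (SE 0.13) and -0.03 in HPg (SE 0.13), and it was lower with PMA in 3 of 6 pairs.

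**Figure D5:**
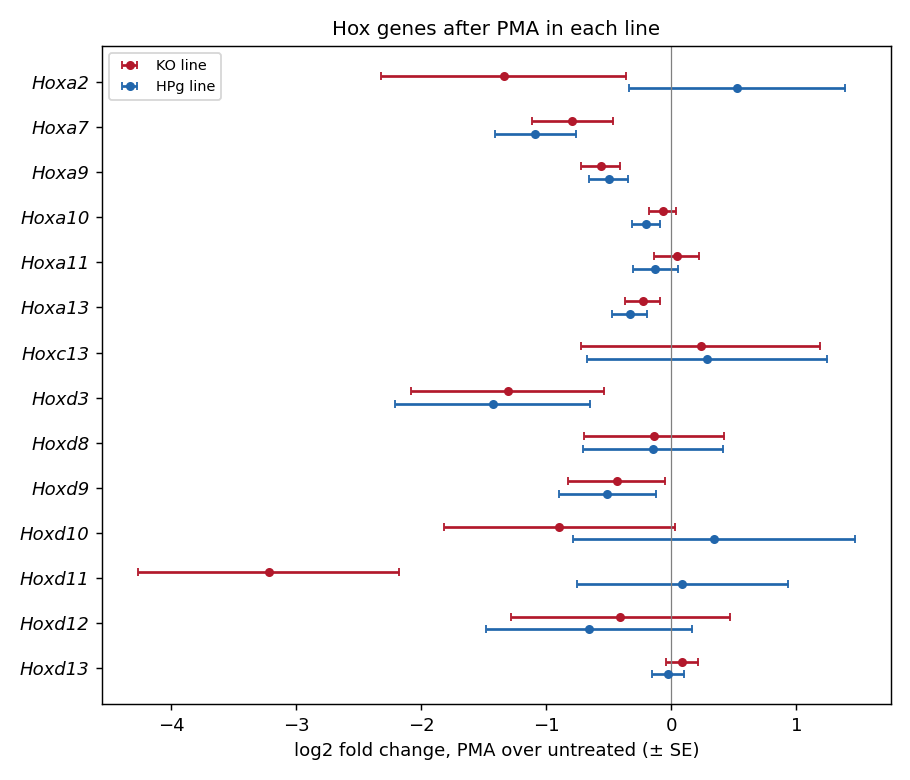
Log2 fold change of PMA over untreated of 14 of the 15 Hox genes tested, in the KO and in the HPg line, from the fit without the block; bars are standard errors. Hoxa7, Hoxa9 and Hoxa13 lie below 0 in both lines, Hoxd13 lies near 0, and no gene passed an adjusted p of 0.05.

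A difference between the lines in the effect of PMA was not detected for any Hox gene. The interaction called 0 of the 15, beside 0.0% of all genes. DESeq2 and limma-voom also called 0 of the 15, beside 1 and 0 of 16630 genes. In the edgeR fit without the block, Hoxd11 alone of the Hox genes had an unadjusted p under 0.05 there, while limma-voom had 2 such genes. Hoxd11 is the gene with a single count in each KO library with PMA. For Hoxa9 the interaction with the block was -0.06 on the log2 scale (SE 0.17, edgeR, adjusted p = 0.937).

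Of the other lists, the 6 noncoding RNAs tested had none called with PMA in either line, and with the block Hotairm1 fell in HPg by 0.85 on the log2 scale (edgeR, adjusted p = 0.04) and Hottip fell in both, by 0.46 in KO and 0.48 in HPg on the log2 scale (edgeR, adjusted p = 0.0122 and 0.00964). Of the 46 Polycomb and Trithorax regulators, 3 rose and 1 fell with PMA in each line, beside 4.44% of all genes called in KO and 3.45% in HPg. Dot1l, an H3K79 methyltransferase, rose by 1.57 in KO and 1.08 in HPg, Kdm6b, a demethylase of the Polycomb mark on histone H3, by 1.29 in KO and 0.86 in HPg, and Phc2 by 0.54 in KO and 0.43 in HPg on the log2 scale (edgeR, adjusted p at most 0.0412). Cbx2, a Polycomb PRC1 subunit, averaged 7.57 ± 0.247 CPM with PMA in KO, against 15.2 ± 0.55 untreated, and 6.36 ± 1.16 CPM with PMA in HPg, against 13.4 ± 2.3 untreated (SD, n = 3 each), and fell by 1.01 and 1.08 on the log2 scale (edgeR, adjusted p = 0.00365 and 0.00285). Of the limb factors, Twist2 rose by 1.46 and Dlx5 fell by 0.99 on the log2 scale in KO (edgeR, adjusted p = 0.037 and 0.0445) and none was called in HPg. The interaction called neither. With the block, Twist2 rose in both lines, by 1.38 in KO and 1.12 in HPg on the log2 scale (edgeR, adjusted p = 1.5e-05 and 0.000133). Dlx5 was called lower in KO in that fit. Without the block, genes near the clusters and cofactors had none called with PMA in either line, with 23 and 8 tested.

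The replicate block, which called 13.4% of all genes with PMA in KO and 14.8% in HPg, changed these counts too. Of the genes near the clusters it called 2 lower in KO and 5 higher in HPg: Jazf1, near HoxA, fell by 0.73 in KO, and Hnrnpa3, near HoxD, rose by 0.68 in HPg on the log2 scale (edgeR, adjusted p = 0.00566 and 0.00326). Of the cofactors, Pbx4, Meis2 and Pknox2 fell in KO by 0.48, 0.53 and 0.59, and Pbx4 fell in HPg by 0.59 on the log2 scale (edgeR, adjusted p at most 0.0267). Of the Polycomb and Trithorax regulators it called 4 higher and 3 lower in KO, and 11 higher and 4 lower in HPg. The limb factors had 2 higher and 6 lower in KO, and 1 higher and 8 lower in HPg, and the patterning regulators 1 higher and 2 lower in KO, and 1 higher and 1 lower in HPg. With the block the interaction called 0 of 16630 genes, so a difference between the lines was not detected for any of these genes. Among the markers of other cell types, Fabp4 and Cd68, a macrophage gene, rose with PMA in both lines in that fit, Sox9 of cartilage rose in KO and Cdh1 of epithelia fell in HPg, and their part in the Hox values was not tested.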

How the data were processed

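RNA-seq was analysed in 12 libraries, 3 for each line and treatment. The authors deposited raw counts per gene, whole numbers with no normalization, as the values show. Libraries were directional, paired-end and made from rRNA-depleted total RNA, per the labels' protocols. STAR 2.5.0a, cutadapt 1.11, and Subread with featureCounts 1.4.6-p3 were used on build mm9, per the submitters' processing notes. No source used here gives the annotation, the strand setting or whether reads or fragments were counted, so antisense and overlapping genes are uncertain. Symbols, exon lengths and overlaps came from GENCODE M21 on GRCm38 by Ensembl identifier (32620 of 37310 matched), and no mm9 coordinate was used.

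Counts were tested with edgeR 4.0.16 (R 4.3.3): TMM factors, filterByExpr (minimum count 10, total 15), robust quasi-likelihood fit with 1 coefficient per group, two-sided tests, and Benjamini-Hochberg adjustment over 16630 genes. The standard error is the log2 fold change divided by the square root of F. The steps were tested on simulated data. DESeq2 1.42.0 and limma-voom (limma 3.58.1) were alternatives, with other scalings, filters, a correction for GC content and length, and each library left out. Libraries with the same number deviated together: the correlation of deviations was 0.309 to 0.786 over 18 same-number pairs and -0.715 to 0.338 over 36 others, so the number was taken to pair them and calls made with the block are given beside those without it, for the lists mainly as counts. Libraries within a group differed beyond sampling noise (chi-square per degree of freedom at least 112.5). Counting floors cover counting error only.

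Genes were named by rule: Cbx3, each Hox gene called, the 2 highest per kb of each cluster, the 3 largest fold changes each way, and called members of the lists; Hoxa13, Hoxd9, Hoxa7, the noncoding RNAs, Pitx1 and the promoters shown were added after values were seen. Members and lists were chosen with earlier results of these data known. Results for some of these genes are not reported here.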

Additional observations from a re-analysis of the deposited data

How the results depend on the processing

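Of the Hox log2 fold changes recomputed, 3 small ones besides Hoxc13 changed direction. Hoxd13 with PMA in KO turned to -0.0395 with total counts only, a scaling under which the median over all genes in that comparison was -0.14 in place of -0.02. Hoxd13 with PMA in HPg turned to 0.02 without HPg library 2 and 0.0924 without HPg PMA library 3, and ranged from -0.11 to 0.09 without 1 library. The interaction for Hoxa9 turned to 0.03 without KO PMA library 3 and 0.0768 without HPg PMA library 1, and ranged from -0.23 to 0.08. Hoxc13 averaged over treatment turned to -0.17 without KO library 2, -0.25 without KO PMA library 2, -0.09 without HPg library 1, -0.11 without HPg library 3, -0.05 without HPg PMA library 1 and -0.07 without HPg PMA library 3; over all fits without 1 library it ranged from -0.25 to 0.89. For the lines averaged over treatment, 1 of the 15 Hox genes was called, beside 1733 of 16630 genes. Upper-quartile factors called 0, beside 1722 genes. A filter of 1 CPM in 3 libraries called 0 of 9 Hox genes, beside 1527 of 12475 genes. DESeq2 called 2 (Hoxa9 and Hoxa10), beside 2627 of 16630 genes. The correction for GC content and length called 2 (Hoxa10 and Hoxa11), beside 2259. The replicate block called 5, beside 4869 genes, and with that correction also 5, beside 5624. Fits without 1 library called 0 to 1 Hox genes, beside 909 to 2210 of all genes. Hoxa9 was lost with upper-quartile factors (adjusted p = 0.11), the 1 CPM filter (0.0595) and the GC and length correction (0.0559); over all alternatives its adjusted p ranged from 0.00472 to 0.11. Without the libraries numbered 2 the count was also 1, beside 3030 of 16642 genes, but the gene was Hoxd8.

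In untreated cells the replicate block called 2 Hox genes without and with the correction, beside 2083 and 2771 of 16630 genes. With PMA it called 2 without and 3 with the correction, beside 3090 and 3420. For PMA in HPg, DESeq2 called 1, beside 1196 genes, and the block 3 without and with the correction, beside 2462 and 2191. For PMA in KO, total counts only called 1, beside 731 genes, and DESeq2 1, beside 1279. The block called 1 there, beside 2221 genes, and 2 with the correction, beside 2987. Fits without 1 library called 0 to 1 Hox genes for PMA in KO. Hoxa9 was called without KO PMA library 1 (edgeR, adjusted p = 0.0271), beside 604 of 17003 genes. The block also moved the counts over all genes by over 1.5 times in 5 comparisons, as given beside each result. Other settings moved these counts too. In untreated cells, where the fit without the block called 219 of 16630 genes, DESeq2 called 775. A fit of only the 2 groups compared called 12 of 15955 there. With the longest transcript as length, HoxA came to 89.8 CPM per kb in place of 76.8, paralog group 10 to 42.9 in place of 33.7, group 9 to 8.17 in place of 5.07 and group 7 to 0.428 in place of 0.303. With 0 to 36 counts a library, differences in Hoxa2, Hoxc13, Hoxd10, Hoxd11 and Hoxd12 were not resolved at this depth.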
